A study of Mus musculus with 6 samples.

Results

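RNA was sequenced from regulatory T cells of mouse bone marrow, and the transcripts described here are those of 10 non-classical MHC class I genes out of 47643 genes in the deposited tables. The 10 are H2-T22, H2-T23, H2-T24, H2-T10, H2-Q4, H2-Q6, H2-Q7, H2-M3, Cd1d1 and Mr1. They were chosen by name, with earlier results of these data known, from class I heavy chain genes outside the classical H2-K and H2-D pair. They are not all of that class: H2-Q5, H2-Q10 and H2-Q2, among others, are described further below with the other class I-like genes. All 10 had a row in every library, and all 10 had enough counts to be tested. Cells were sorted by flow cytometry as CD4+ cells that carry the GFP reporter of FOXP3, the transcription factor of the regulatory T cell lineage, so cells of both groups carry that reporter. The 3 myeloma libraries, numbered 3, 4 and 5, came from marrow of mice injected with Vk*MYC, a mouse model of multiple myeloma, a cancer of plasma cells. The 3 control libraries, numbered 1, 3 and 5, came from marrow of control mice. The labels name no strain, age or sex, no time after injection and no treatment of the controls, and the study's title concerns blocking of the type I interferon receptor.

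Class I molecules are cell surface proteins in which a polymorphic heavy chain usually pairs with the light chain beta-2-microglobulin. Classical heavy chains show peptides from inside the cell to CD8 T cells and are made by nearly all cells. Non-classical heavy chains vary less between individuals and serve narrower tasks: they show leader peptides to inhibitory receptors of natural killer cells, formylated bacterial peptides, lipids or vitamin metabolites to specialised T cells, or act as ligands without any cargo. Interferons raise transcription of many class I genes through an interferon-stimulated response element in the promoter, and the transactivator NLRC5 acts on a neighbouring promoter module.

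In myeloma libraries, 6 of the 10 genes rose and none fell when tested with edgeR (quasi-likelihood, adjusted p under 0.05 after Benjamini-Hochberg correction across 13235 genes). Among all genes tested, 6.33% were called higher and 4.69% lower. The 3 strongest rises were in the H2-T genes H2-T24 (2.38-fold), H2-T22 (2.01-fold) and H2-T23 (1.96-fold), followed by H2-M3 (1.67-fold). H2-T10 (1.39-fold) and H2-Q4 (1.32-fold) rose by about as much as the classical genes. H2-Q6, H2-Q7, Cd1d1 and Mr1 were not called. At an unadjusted p under 0.05 there were 8 members higher and 1 lower, beside 2019 and 1679 of the 13235 genes tested. DESeq2 called 8 members higher and 0 lower (7.29% and 6.38% of its genes). With limma-voom, 6 members were called higher and 0 lower, beside 791 and 586 of the 13235 genes. The 3 myeloma values lay above all 3 control values in 8 of the 10 genes and below them in 1, against 17.3% and 16.0% of all genes tested. The members were chosen with earlier results of these data known, so the counts of members are a description only.

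The 8 H2 members lie on chromosome 17 of mm10 (GRCm38, GENCODE release M21). The H2 region is polymorphic and the labels name no strain, so how well mm10 stands for these mice is not known. The separate levels and printed letters of the H2 members depend on that reference. H2-Q4 (35379617 to 35385290), H2-Q6 (35424850 to 35430055) and H2-Q7 (35439155 to 35443773) stand in a row on the plus strand. H2-T24 (36005695 to 36020560), H2-T23 (36029773 to 36032855), H2-T22 (36037128 to 36042747) and H2-T10 (36115876 to 36121465) lie on the minus strand, and H2-M3 (37270220 to 37274484) on the plus strand. Cd1d1 is on chromosome 3 (86995834 to 86999441, minus strand) and Mr1 on chromosome 1 (155127277 to 155146814, minus strand). GENCODE lists H2-T10 as a polymorphic pseudogene and the other 9 as protein coding.

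RefSeq promoter windows of 300 bases, from 250 before to 50 after the annotated start on GRCm38.p6, matched 7 of the 10 members, all but H2-T24, H2-T10 and Cd1d1. The interferon-stimulated response element, written as GAAA, any 2 bases and GAAA and searched on both strands, was found in H2-T23 and H2-T22 as well as in B2m, and in 3.49% of 27025 promoter windows. The shorter letters GAANNGAAA, a search added after the data were examined, were found in H2-Q4, H2-Q6, H2-Q7 and H2-M3 as well as in H2-K1 and H2-D1, and in 7.56% of windows. No gene among these matched both searches, and Mr1 matched neither. The stretches below are shown because they let the matched letters of the members be read beside each other. They cover the 6 members with a match, and not H2-T24, which had the highest fold change. Each is printed 5′ to 3′ on the gene's strand, with the matched letters (here read on the opposite strand) in capitals. H2-K1 is included as the classical gene for comparison, and the shorter stretches are those that touch an annotated exon.
H2-T22 (chr17:36042899-36042958, minus strand): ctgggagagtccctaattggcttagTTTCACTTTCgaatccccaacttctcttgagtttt
H2-T23 (chr17:36032806-36032835, minus strand): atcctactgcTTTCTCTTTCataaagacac
H2-M3 (chr17:37270108-37270167, plus strand): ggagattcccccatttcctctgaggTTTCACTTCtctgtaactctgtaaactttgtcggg
H2-Q4 (chr17:35379454-35379483, plus strand): atctccccagTTTCACTTCtgctcctaact
H2-Q6 (chr17:35424673-35424732, plus strand): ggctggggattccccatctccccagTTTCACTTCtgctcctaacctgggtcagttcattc
H2-Q7 (chr17:35439017-35439076, plus strand): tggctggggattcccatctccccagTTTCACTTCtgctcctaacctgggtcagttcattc
H2-K1 (chr17:34000403-34000462, minus strand): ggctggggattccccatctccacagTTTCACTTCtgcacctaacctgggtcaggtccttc

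Counted from the RefSeq start, the matched letters began 191 bases upstream in H2-T22, 124 in H2-T23 and 101 in H2-M3. They began 153 bases upstream in H2-Q4, 152 in H2-Q6, 113 in H2-Q7 and 90 in H2-K1. The H2-T23 stretch lies inside the GENCODE span of that gene (36029773 to 36032855). GENCODE thus places the H2-T23 start further upstream than RefSeq does, and by GENCODE these letters are not upstream of the gene. The NF-kB letters (GGGGA, any base and TCCC, on either strand), found in 0.315% of windows, were present in H2-Q6 and H2-Q7 and in the classical H2-K1 and H2-D1. They overlap no interferon letters, and in the H2-Q6, H2-Q7 and H2-K1 stretches they stand shortly before the capitals. The CCAAT letters of the Y box, part of the module bound with NLRC5, were in 6 of the 7 members' windows, all but Mr1, and in 37.9% of all windows. A match of letters describes the sequence and was not tested as a binding site.

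Per transcript length, the order of the members spanned from the Qa-2 genes to Mr1. In controls H2-Q7 stood highest at 2033 ± 268 TPM (transcript abundance scaled for length and depth; SD, n = 3). H2-Q6 followed at 952 ± 107, H2-Q4 at 659 ± 29.4, H2-T23 at 548 ± 57.0 and H2-T22 at 233 ± 25.3 TPM. Cd1d1 was at 126 ± 2.90, H2-T10 at 70.3 ± 7.54, H2-M3 at 57.5 ± 2.59, H2-T24 at 29.6 ± 8.92 and Mr1 at 15.1 ± 2.36 TPM. No 2 neighbours in this order overlapped among the control libraries. In myeloma H2-T23 passed H2-Q4, at 897 ± 71.7 against 747 ± 54.2 TPM. Its values then overlapped those of H2-Q6 (1029 ± 87.2 TPM). Cd1d1 (83.9 ± 6.73 TPM), H2-T10 (83.4 ± 9.12) and H2-M3 (80.7 ± 2.28) also came to overlap, each with its neighbour in the order. The other neighbours stayed apart.

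H2-T22 encodes a heavy chain that carries no peptide and is a ligand of a subset of gamma-delta T cells. Its close relative H2-T10 encodes a similar ligand where it is coding, but GENCODE lists it as a polymorphic pseudogene. H2-T22 measured 471, 468 and 557 CPM (counts scaled to the library size, with TMM factors) in myeloma replicates 3, 4 and 5. It measured 265, 235 and 245 CPM in control replicates 1, 3 and 5. The groups did not overlap, and the lowest myeloma library was well above the highest control. The log2 fold change was 1.0 (SE 0.10, adjusted p = 0.000554). H2-T10 was at 127.3, 119.0 and 112.4 CPM in myeloma and 91.9, 82.3 and 83.3 CPM in controls. Its groups were also apart, with a smaller distance (log2 fold change 0.48, SE 0.09, adjusted p = 0.0113). The call of H2-T10 was lost when myeloma replicate 3 (adjusted p = 0.0528) or control replicate 3 (0.0629) was removed, and on TPM (limma, 0.252).

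Of the distinct 50-base sequences in the annotated transcripts of H2-T10, 31.7% also occur in H2-T22, and 31.2% of those of H2-T22 occur in H2-T10. Reads from such stretches were divided between the 2 genes by the authors' RSEM run, so the separate values are uncertain to that extent. The sum of both does not depend on that division. It was 599, 587 and 669 CPM in myeloma against 357, 317 and 328 CPM in controls. The groups lay apart, by 0.89 in log2 (SE 0.09, adjusted p = 0.000764). The sum was called whichever library was left out, with adjusted p from 0.00127 to 0.00840.

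H2-T23 encodes Qa-1, which shows leader peptides of classical class I molecules to the inhibitory receptor pair of CD94 and NKG2A. Its level was 1010, 888 and 1012 CPM in myeloma and 542, 486 and 460 CPM in controls. Every myeloma library was above every control, and control replicate 1 was the highest control, as it was for H2-T22 and H2-T10. The log2 fold change was 0.97 (SE 0.10, adjusted p = 0.000776). Few of its 50-base sequences occur in the other class I genes compared, and 94.9% were found in none of them.

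H2-T24 had the largest fold change of the members and, on the log2 scale, the widest spread in controls. Myeloma libraries were at 86.1, 70.8 and 99.4 CPM and controls at 30.3, 28.9 and 48.5 CPM. Control replicate 5 stood above the other controls but below all myeloma libraries. The log2 fold change was 1.25 (SE 0.20, adjusted p = 0.00769), and 1.52 without control replicate 5 (adjusted p = 0.00223). H2-T24 shares little sequence with the others, with 98.8% of its 50-base sequences in none of the 15 class I genes compared.

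H2-M3 encodes a heavy chain that shows N-formylated peptides of bacterial or mitochondrial origin. Its values were close together within each group: 76.0, 76.3 and 79.7 CPM in myeloma and 47.7, 49.0 and 42.8 CPM in controls. The groups lay apart (log2 fold change 0.74, SE 0.09, adjusted p = 0.00188). H2-T22, H2-T23, H2-T24 and H2-M3 were called in all 6 fits that left out 1 library.

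**Figure D1:**
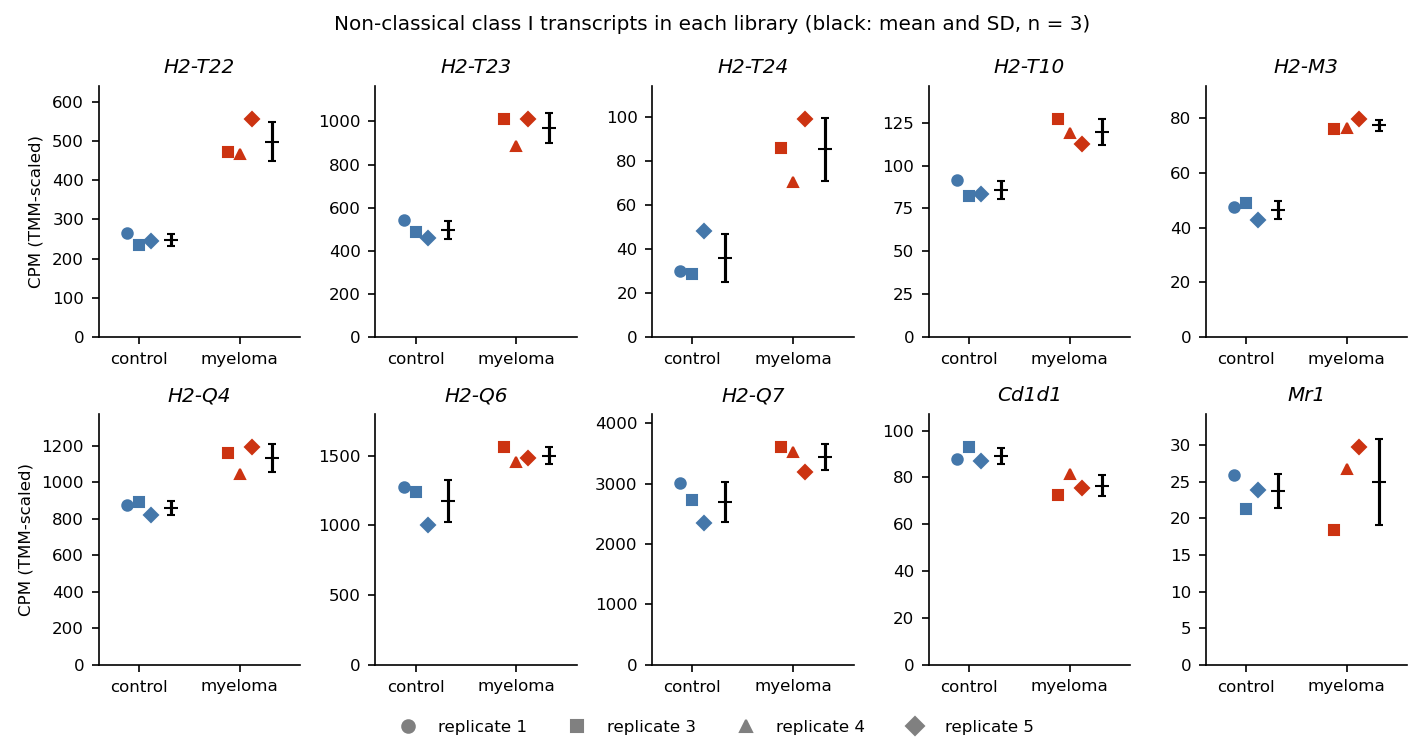
TMM-scaled CPM (vertical axis, from 0, its own scale in each panel) of the 10 non-classical class I genes in the 3 control and 3 myeloma libraries, each point 1 library with its replicate number as the symbol, and the black mark the group mean and SD. The myeloma points lie above all control points in 8 panels and below them for Cd1d1, and for Mr1 the groups overlap.

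The H2-Q members were the 3 most abundant of these transcripts per length in controls, and had the smallest fold changes among the H2 members. H2-Q4 encodes a secreted heavy chain, and H2-Q6 and H2-Q7 encode Qa-2, which is held in the membrane by a glycolipid anchor. H2-Q4 was at 1158, 1044 and 1195 CPM in myeloma and at 875, 889 and 818 CPM in controls. These groups were apart and the gene was called (log2 fold change 0.40, SE 0.09, adjusted p = 0.0292). With 1 library removed at a time, it kept that call once in 6, when myeloma replicate 5 was absent (0.0444). On removing myeloma 3 or 4 the adjusted p was 0.0990 or 0.0501, and on removing control 1, 3 or 5 it was 0.0625, 0.0904 or 0.0964. Scaling by library sizes alone gave 0.0538, and limma on TPM gave 0.303.

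H2-Q7 measured 3615, 3524 and 3201 CPM in myeloma and 3010, 2729 and 2344 CPM in controls. The groups did not overlap, but the spread within the controls was wide, from replicate 5 at the bottom to replicate 1 at the top. Its log2 fold change was 0.36 (SE 0.12, adjusted p = 0.0836). H2-Q6 followed the same order of controls, at 1277, 1242 and 1001 CPM in replicates 1, 3 and 5, against 1566, 1454 and 1482 CPM in myeloma (log2 fold change 0.36, SE 0.11, adjusted p = 0.0749). With DESeq2 both genes were called, H2-Q6 at an adjusted p of 0.00757 and H2-Q7 at 0.00745. Of the 50-base sequences of H2-Q6, 13.9% occur in H2-Q7 and 12.3% in H2-Q4, and 14% of those of H2-Q7 occur in the class I gene H2-Q10. Summed over H2-Q4, H2-Q6 and H2-Q7, the level was 6338, 6021 and 5878 CPM in myeloma and 5162, 4860 and 4162 CPM in controls. The sum was not called (log2 fold change 0.36, SE 0.11, adjusted p = 0.0667).

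Cd1d1 encodes CD1d, which shows lipids to natural killer T cells. It was the only member whose myeloma values lay below all control values: 72.6, 81.6 and 75.3 CPM in myeloma and 87.9, 93.2 and 86.8 CPM in controls. The difference was small and was not called (log2 fold change -0.22, SE 0.08, adjusted p = 0.118). On the authors' TPM the distance was wider, with 83.9 ± 6.73 in myeloma and 126 ± 2.90 in controls, and limma on log2(TPM + 1) called it lower (-0.58, SE 0.10, adjusted p = 0.0267). On that scale 1.66% of genes were called higher and 6.44% lower, and the median gene was at -0.21, so Cd1d1 stood 0.37 below the median. Of the 50-base sequences of Cd1d1, 19.1% occur in its neighbour Cd1d2, a scarce transcript (2.98 ± 1.86 CPM in myeloma, 3.76 ± 0.27 in controls).

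CD1d is made by B cells and myeloid cells as well. The 9 B cell markers summed to 28.4, 42.1 and 71.1 CPM in myeloma and to 46.0, 232.9 and 295.5 CPM in control replicates 1, 3 and 5, with 4 of 9 called lower. The 11 myeloid markers ranged from 145 to 706 CPM in their sum in myeloma and from 83.8 to 201 CPM in controls, with 1 of 11 called higher. The part of B cells or myeloid cells in the Cd1d1 values was not tested. In a bulk library, fewer cells of a type and less RNA per cell cannot be told apart.

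Mr1 encodes MR1, which shows vitamin B metabolites to mucosal-associated invariant T cells. It was the least abundant member, at 18.5, 26.8 and 29.8 CPM in myeloma and 25.9, 21.3 and 23.9 CPM in controls. The myeloma values spread over both sides of the controls, with replicate 3 the lowest of all 6 libraries. No difference was called (log2 fold change 0.08, SE 0.18, adjusted p = 0.829). Its sign turned with library sizes alone, on TPM and without myeloma replicate 5.

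The members were next set against the classical heavy chains H2-K1 and H2-D1, which removes the effect of library scaling. H2-K1 rose 1.33-fold, from 4519 ± 218 to 6011 ± 181 CPM, and H2-D1 rose 1.32-fold, from 3021 ± 98.4 to 3979 ± 54.5 CPM (adjusted p = 0.0273 and 0.0252). Neither call held in most fits with 1 library left out: both ended on removing myeloma 3 (0.102 and 0.0932), myeloma 4 (0.0833 and 0.0702), control 3 (0.0863 and 0.0941) or control 5 (0.0764 and 0.0711), and that of H2-K1 also on removing control 1 (0.0511). Relative to the sum of H2-K1 and H2-D1 counts, the mean log2 ratio was higher in myeloma by 0.87 for H2-T24, 0.60 for H2-T22, 0.56 for H2-T23 and 0.33 for H2-M3. For these 4 genes every myeloma library was above every control library. For Cd1d1 the mean difference was -0.63, and every myeloma library was below every control. Because H2-K1 and H2-D1 rose, such a ratio falls even for a gene that is itself unchanged. By itself Cd1d1 had a log2 fold change of -0.22 and was not called.

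For these 5 genes the two-sided exact permutation test gave p = 0.1, which is the smallest that 3 against 3 libraries allow, and 0.2 after adjustment over the 10 genes. The same exact test gave p = 0.4 for H2-T10 (mean difference 0.07), 0.9 for H2-Q4 (-0.01), 0.6 for H2-Q6 (-0.04), 0.5 for H2-Q7 (-0.05) and 0.2 for Mr1 (-0.35). In these 5 genes the ratios of the groups overlapped.

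**Figure D2:**
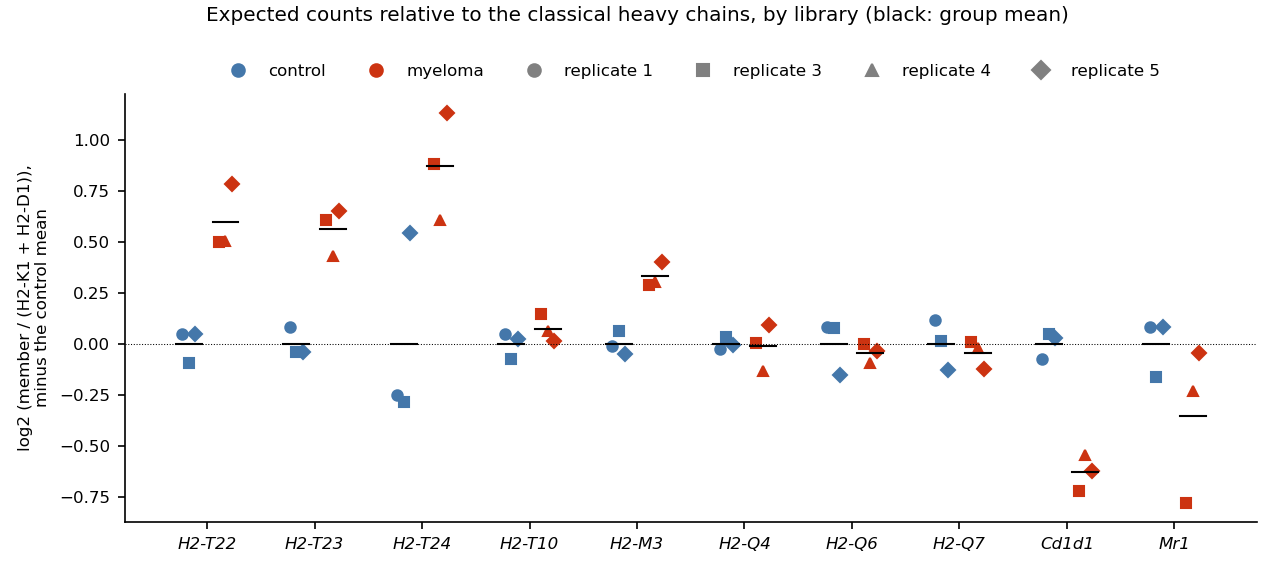
Log2 ratio of each gene's expected count to the sum of H2-K1 and H2-D1 counts, minus the mean of the 3 controls (vertical axis), by gene, with 1 point per library and a black line for the group mean. Myeloma points lie above all controls for H2-T22, H2-T23, H2-T24 and H2-M3, below them for Cd1d1, and around the control mean for H2-T10 and the H2-Q genes.

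In TPM, the 4 H2-T members made up 9.86, 9.27 and 10.7% of the summed level of the 8 H2 members with H2-K1 and H2-D1 in myeloma, against 7.15, 6.68 and 7.15% in controls. The groups were apart (exact permutation p = 0.1). H2-M3 made up 0.562 ± 0.024% in myeloma and 0.457 ± 0.015% in controls. The share of H2-K1 and H2-D1 was 61.1 ± 0.709% in myeloma and 63.7 ± 1.33% in controls. The H2-Q share was 28.3 ± 0.570% and 28.9 ± 1.39%, with overlapping values (exact permutation p = 0.6).

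Of 16 genes for classical heavy chains and peptide loading, 13 rose and none fell, with a median log2 fold change of 0.53 beside 0.44 over the 10 members and 0.02 over all genes tested. At an unadjusted p under 0.05 none of the 16 was lower, and DESeq2 and limma-voom each called 13 higher and 0 lower. B2m, the light chain shared by these heavy chains, rose 1.51-fold, from 2303 ± 232 to 3471 ± 396 CPM (adjusted p = 0.0185). Its call ended on removing myeloma 3 (0.0753), myeloma 4 (0.0733) or control 5 (0.0656). Tap1, a subunit of the peptide transporter, rose 1.77-fold (adjusted p = 0.000789), and the immunoproteasome subunit Psmb9 rose 2.07-fold (0.000638). Psme2, Psme1 and Psmb8 rose 1.89-fold, 1.68-fold and 1.75-fold. On TPM, limma did not call B2m (0.219), H2-K1 (0.555) or H2-D1 (0.551).

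Among 14 transcriptional regulators of class I genes, 5 rose and 1 fell. Stat2 rose 2.73-fold and Irf9 1.76-fold, and both encode transcription factors of the interferon response. Nlrc5, the class I transactivator, rose 1.44-fold, from 446 ± 36.5 to 641 ± 55.3 CPM (adjusted p = 0.0141), a call that ended when myeloma replicate 3 (0.0598) or control replicate 5 (0.0554) was removed. Irf1 rose 1.36-fold (adjusted p = 0.0397) and with 1 library removed at a time was called once in 6, when control replicate 3 was absent. Its call also ended with library sizes alone (0.0562), with the effective-length offset (0.203) and on TPM (limma, 0.718). Nfya, a subunit of the CCAAT-binding factor, fell (log2 fold change -0.47, adjusted p = 0.0409), but was not called on removing myeloma 4 (0.129), myeloma 5 (0.0786), control 3 (0.151) or control 5 (0.102).

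All 20 genes listed for type I interferon responses rose, with a median log2 fold change of 2.50. Since they were chosen with earlier results of these data known, this count and median are a description only. Bst2, Ifi27l2a, Isg15, Mx1 and Ifi44 had the smallest p-values.

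For the lipid transfer and trafficking partners of CD1d and MR1, 2 of 13 rose and none fell, with a median of 0.14. None was lower at an unadjusted p under 0.05, with DESeq2 or with limma-voom. Ctss, the protease cathepsin S, rose 2.05-fold (adjusted p = 0.000554), and Npc2, a lysosomal sterol carrier, rose 1.55-fold (0.00539). The genes for other class I-like molecules were mostly silent: 6 of the 29 in the table could be tested and none was called in either direction by edgeR, DESeq2 or limma-voom. At an unadjusted p under 0.05, 1 was higher and 0 lower. H2-Q5, by far the most abundant, measured 284 ± 31.8 CPM in myeloma against 229 ± 24.1 in controls (adjusted p = 0.107). H2-Q10 was at 67.4 ± 8.38 and 61.7 ± 11 CPM, Ulbp1, a ligand of the receptor NKG2D, at 3.14 ± 0.53 and 4.71 ± 0.78, Fcgrt, the neonatal Fc receptor, at 4.92 ± 5.33 and 2.74 ± 1.11, and H2-Q2 at 1.67 ± 0.45 and 1.59 ± 0.575.

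The genes listed for receptors that read non-classical class I molecules were scarce in these sorted cells. The list also holds Zbtb16, a transcription factor gene, and Fpr1, a receptor of free formylated peptides. Of 11 listed genes with a row, 5 could be tested and none was called by edgeR, DESeq2 or limma-voom, with 1 higher and 0 lower at an unadjusted p under 0.05. Expected counts of Klrc1, which encodes NKG2A, were 0, 0 and 12.1 in myeloma and 5, 4 and 4 in controls. Those of Klrd1, which encodes CD94, were 5, 0 and 27 in myeloma and 2, 14 and 14 in controls.

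**Figure D3:**
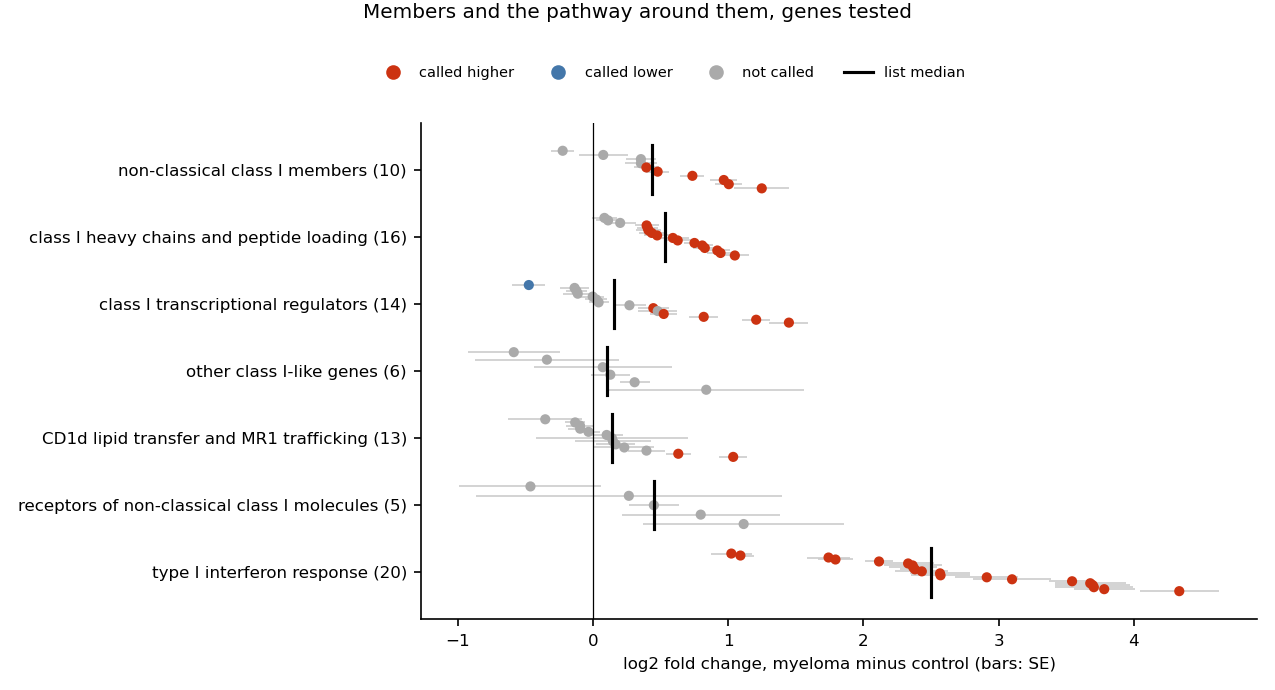
Log2 fold change, myeloma minus control, with its SE (horizontal axis) for the tested genes of the 10 members and of 6 lists around them (vertical axis, number tested in brackets), coloured by call, with the list median as a black line. The members' median of 0.44 stands beside 0.53 for the classical presentation genes and 2.50 for the interferon response genes. The members and the lists were chosen with earlier results known.

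Library totals ran from 10240620 to 13314631 expected counts. The 8 regulatory T cell markers, Foxp3 and Cd4 among them, summed to 5050 to 5256 CPM in myeloma and 4432 to 5872 CPM in controls. Of these 8, 1 was called higher and 0 lower: Tnfrsf18 rose 1.62-fold (adjusted p = 0.00776). Without a call, Il2ra lay below all controls (adjusted p = 0.131) and Cd3d above them (0.0520). Of the markers of other marrow cells, the plasma cell, erythroid and dendritic cell sums did not overlap between the groups and the other sums did. Among single genes tested, 17.3% lay apart with myeloma higher and 16.0% with myeloma lower. As to calls, 6.33% of all genes were called higher and 4.69% lower. The 9 plasma cell markers had sums of 316, 435 and 602 CPM in myeloma and of 190 to 244 CPM in controls, with 2 of 8 tested called higher. Prdm1, Txndc5 and Xbp1 averaged 69.0, 69.9 and 63.8 CPM in controls, so much of each sum is not particular to plasma cells. In myeloma replicate 3, Sdc1, Mzb1, Derl3, Xbp1 and Slamf7 lay within the control range, and Jchain, Tnfrsf17, Prdm1 and Txndc5 above it. The 11 myeloid markers summed to 145 to 706 CPM in myeloma and 83.8 to 201 in controls, with 1 of 11 called higher, and the 6 erythroid markers to 2500 to 3053 and 4366 to 9624 CPM, with 4 of 6 called lower. Dendritic cell, natural killer cell and CD8 T cell markers summed to at most 22.4 CPM in any library. No list had a marker at 0 in all libraries. Myeloma replicate 5, with the highest plasma cell and myeloid sums, was the highest library for H2-T22, H2-T23, H2-T24, H2-Q4, H2-M3 and Mr1. Myeloma replicate 3, with the lowest of both sums in its group, was the highest library for H2-T10, H2-Q6 and H2-Q7 and the lowest of its group for H2-M3, Cd1d1 and Mr1. The part of these cells in the members' values was not tested.

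By the correlation of log2 CPM across the 6 libraries with the members' mean, each centred on its own mean, the most similar of 9429 protein-coding genes were Ifi211 (r = 0.999), Ybx1 (0.999), Cd86 (0.998), Tnfsf10 (0.997) and Arpc5 (0.997). These values describe 6 libraries in 2 groups and share the library totals, and with so many candidates some come near 1 whatever the genes. Ifi211, an interferon-inducible gene, had a log2 fold change of 3.78, while the mRNA-binding protein gene Ybx1 had 0.24 and was not called (adjusted p = 0.0682).

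**Figure D4:**
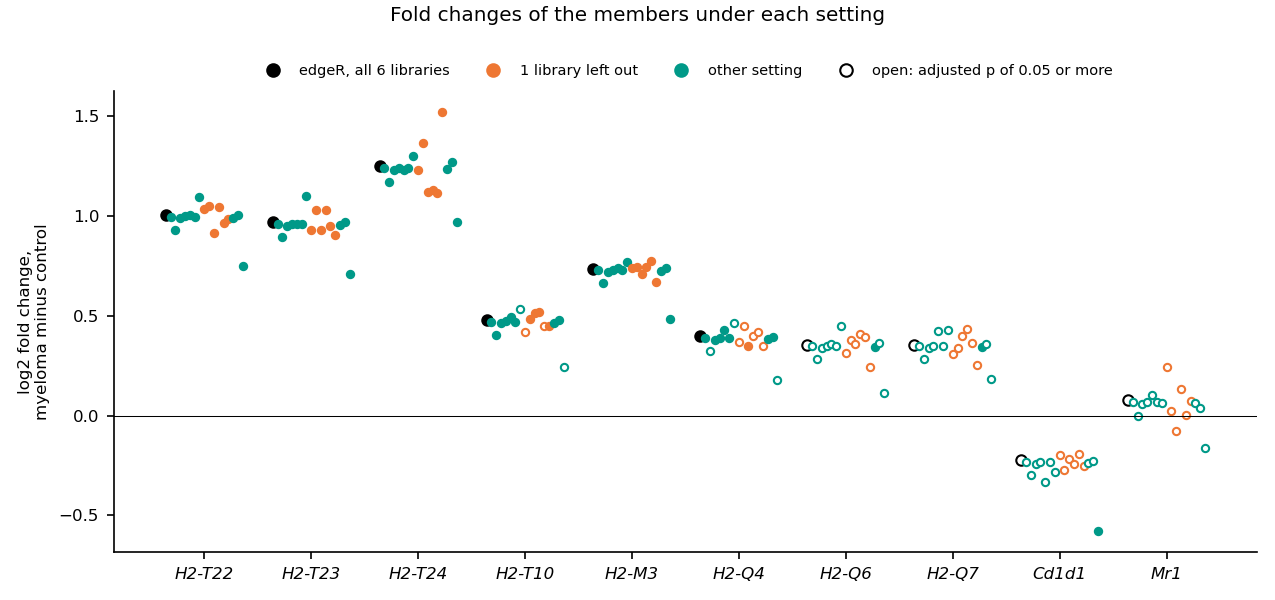
Log2 fold change, myeloma minus control (vertical axis), of each gene under edgeR with all 6 libraries (black), with 1 library left out (orange) and under 10 other settings (green), where open points have an adjusted p of at least 0.05. H2-T22, H2-T23, H2-T24 and H2-M3 are filled throughout, H2-T10 and H2-Q4 are open in some fits, and Mr1 is open throughout and lies on both sides of 0. H2-Q6 and H2-Q7 are filled only with DESeq2, and Cd1d1, below 0, only with limma on log2(TPM + 1).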

How the data were processed

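Total RNA of the sorted cells was prepared with the NEBNext Ultra kit, which does not mark strand, per the labels' protocols. Picard, STAR, RSEM, DESeq2 and the build mm10 are named per the submitters' processing notes; their versions were not given in the sources used here. Per the file headers, the authors' expected counts are RSEM estimates per gene, not always whole, and the deposited TPM and effective lengths come from the same run. Each file holds 1 library. Of 47643 Ensembl IDs, 47224 matched the reference names and 419 kept the table's name.

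Expected counts were rounded, filtered with filterByExpr (minimum count 10, minimum total count 15) and TMM-scaled, and the groups were compared with edgeR 4.0.16 (R 4.3.3), glmQLFit and glmQLFTest, myeloma minus control, with Benjamini-Hochberg adjustment at 0.05. Where no tool is named beside an adjusted p, it comes from edgeR. The SE is the log2 fold change divided by the square root of F. Alternatives were RLE factors, library sizes alone, no filter, 1 CPM in 3 libraries, an effective-length offset, a fit with replicate number as a block, a fit without haemoglobin, immunoglobulin and mitochondrial genes, DESeq2 1.42.0, limma-voom (limma 3.58.1), limma on log2(TPM + 1) for genes with a mean of at least 1 TPM, and leaving out each library. The series' text counts 3 marrows per group and ties no library number to a mouse or day. A p-value thus covers only the variation among these libraries, which may be technical.

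The members, lists and tests were chosen with earlier results of these data known. Every member is named. From each list the text names up to 5 called genes per direction with the smallest p, plus B2m, H2-K1, H2-D1, Nlrc5, Tap1 and Irf1 and the class I-like genes with at least 1 CPM; 1 gene that the rule names is not reported here. Klrc1 and Klrd1 were added after their values were seen. Shared 50-base sequences were counted over GENCODE release M21 transcripts.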

Additional observations from a re-analysis of the deposited data

How the results depend on the processing

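All 6 calls among the members held with RLE factors, no filter, the filter at 1 CPM, the effective-length offset, limma-voom and removal of immunoglobulin, haemoglobin and mitochondrial genes. Between 4 and 6 members were called higher, and 0 lower, whichever library was left out. With limma on log2(TPM + 1), 4 members were called higher and 1 lower. Of 13530 genes on that scale, 225 were called higher and 871 lower, and the median log2 fold change was -0.21. H2-T10 (adjusted p = 0.252) and H2-Q4 (0.303) were not called there. Neither were B2m (0.219), H2-K1 (0.555), H2-D1 (0.551), Nlrc5 (0.0956), Irf1 (0.718), Irf9 (0.0537) and Npc2 (0.0597). H2-K1 (0.0586) and H2-D1 (0.0567) were not called with library sizes alone, nor Nfya (0.0559) with the effective-length offset. Over all genes, 838 were higher and 621 lower. The counts were 633 and 1004 with library sizes alone, 1337 and 1102 with no filter, 616 and 372 with the effective-length offset, and 331 to 836 and 123 to 546 with 1 library left out, fits that have fewer samples. The sum of all 8 H2 members (log2 fold change 0.47, adjusted p = 0.0256) ranged from 0.39 to 0.54 with 1 library left out; its adjusted p was 0.0978 on removing myeloma 3, 0.0718 on removing myeloma 4, 0.0834 on removing control 3 and 0.0683 on removing control 5. The cause was not tested.

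Replicate numbers do not pair the samples by any label, and only numbers 3 and 5 occur in both groups, with correlations of deviations from the group means of 0.03 and 0.10. With the replicate number as a block, 362 genes were higher and 142 lower, and 4 members were higher, H2-T22, H2-T23, H2-T24 and H2-M3. H2-T10 (adjusted p = 0.0657) and H2-Q4 (0.0733) lost their calls there, as did H2-K1 (0.0625), H2-D1 (0.0642), Irf1 (0.0989) and Nfya (0.0571). The sum of the 8 H2 members kept its call (0.56, adjusted p = 0.0331).

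The sign of Mr1 turned with library sizes alone (-0.0013) and on TPM (-0.16), and its log2 fold change ran from -0.078 (myeloma 5 removed) to 0.24 with 1 library left out. In the same fits H2-Q2 ran from -0.21 to 0.29, H2-Q10 from -0.016 to 0.22, Cd1d2 from -0.78 to 0.086 and Fcgrt from -0.58 to 1.24, and on TPM H2-Q2 was at -0.11 and H2-Q10 at -0.12. At under 5 CPM the depth limits what can be said of H2-Q2, Cd1d2 and Fcgrt. The short interferon letters, in place of the long ones, were found in 4 members' promoter windows in place of 2.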
